A study of Mus musculus with 4 samples.

Results

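The nuclei described here are astrocytes of the mouse deep cerebellar nuclei that carried transcripts of Gria1, Slc7a10 or Lgr6 and none of a set of fibrous-astrocyte genes. They were selected on their own counts: at least 3 of Slc1a2, Slc1a3, Gpc5, Aqp4, Gja1 and Slc6a11 with a count, at most 1 of Mog, Mag, Opalin and Aspa, at most 1 summed count of Gad1 and Gad2, no listing in the deposited vglut2 table, a summed count of 0 over Gfap, Cd44, Ccdc3, Mamdc2 and Cnmd, and at least 1 count of Gria1, Slc7a10 or Lgr6. This gave 2311 of 21494 nuclei (10.8%), or 46.8% of the 4934 nuclei that met the astrocyte part of the rule. They are called protoplasmic astrocytes below. The closest other class, called fibrous-gene astrocytes, met the same astrocyte part, had a count of Gfap, Cd44, Ccdc3, Mamdc2 or Cnmd and none of Gria1, Slc7a10 and Lgr6, and held 891 nuclei. A further 1290 nuclei carried genes of both sets and 442 of neither.

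The study sequenced single nuclei of tissue micro-dissected from brain slices of C57BL/6J mice. The tissue, the deep cerebellar nuclei, sends the output of the cerebellum to other brain regions. Each of 2 transgenic lines gave 2 libraries. The Ucn3-Cre line, Tg[Ucn3-cre]KF31Gsat/Mmucd, carries Cre under control of the urocortin 3 gene, and was represented by a female (replicate 1) and a male (replicate 2), both 3 months old. The vGluT2-Cre line, Tg(Slc17a6-icre)1Oki, carries Cre under control of Slc17a6, the vesicular glutamate transporter of many hindbrain neurons, and was represented by a male of 2 months (replicate 1) and a female of 2.5 months (replicate 2). All 4 libraries also carried Ai32, a CAG-driven channelrhodopsin-EYFP gene at Rosa26 that Cre turns on, so no group lacked a transgene. Nuclei of Ucn3-Cre replicate 1 were isolated on an iodixanol gradient and those of the other 3 libraries on a sucrose cushion. Age therefore goes with line, and the isolation method differs for 1 library only. The labels used here name no sort of nuclei.

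Protoplasmic astrocytes are the branched astrocytes of grey matter, whose fine processes surround synapses, while fibrous astrocytes run along axons of white matter and are rich in intermediate filaments. Grey-matter astrocytes take up glutamate and GABA, convert glutamate to glutamine, buffer potassium and exchange serine and glycine with neurons. In the cerebellum, Hedgehog signalling from Purkinje cells is known to act on astroglia, and Bergmann glia of the cortex and astrocytes of the deep nuclei are separate astroglial types.

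The 4 libraries held 4291 to 6587 nuclei with 9096357 to 19125488 deposited counts each. Between 3 and 8 cell barcodes were shared by any pair of libraries. Protoplasmic astrocytes numbered 584 (Ucn3-Cre replicate 1), 743 (Ucn3-Cre replicate 2), 549 (vGluT2-Cre replicate 1) and 435 (vGluT2-Cre replicate 2). Their median nucleus held 2293.5, 2668, 2766 and 4212 counts, in that order of libraries, which is kept for all values below. Fibrous-gene astrocytes were shallower in each library, with medians of 1769, 2156, 2245.5 and 3381.5 counts. A gate that asks for counts of 0 admits shallow nuclei more easily than deep ones, and the comparisons were repeated with every nucleus thinned to 1000 counts before gating. The summed nuclei of a class in a library were the unit of every test, and levels are CPM, counts per 1000000 counts of that sum.

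Of the 3 admitting genes, Slc7a10, the Asc-1 transporter for D-serine and glycine, was counted in most members: in 93.7%, 89.6%, 95.1% and 95.2% of the nuclei of the 4 libraries. Gria1, an AMPA receptor subunit, was counted in 36.6%, 40.6%, 30.8% and 47.4%, and Lgr6, an R-spondin receptor, in 15.9%, 19.8%, 24.2% and 24.6%. The number admitted by Gria1 alone was 24, 50, 14 and 14, against 326, 371, 305 and 192 admitted by Slc7a10 alone, so the class is mainly one of Slc7a10. These values follow from the rule and are a description. Trpm3, a cation channel given as a marker of these cells, stood at 10328, 8119, 10015 and 8585 CPM in the members. It stood at 2238 to 3796 CPM in the fibrous-gene astrocytes and at no more than 1129 CPM in any library of the 7 other classes compared. A count of Trpm3 was found in 98.4% to 99.5% of members and in 88.9% to 98.6% of fibrous-gene nuclei, so the 2 astrocyte classes differed mainly in its level. Slc6a11, the GABA transporter GAT-3, stood at 857 to 1043 CPM in the members and 192 to 310.3 CPM in the fibrous-gene astrocytes. It is a gene of the astrocyte part of the rule, so its levels are a description as well. At the edge of the rule, 367 members had a summed count of exactly 1 over the 3 admitting genes, 442 nuclei just outside had 0, and 652 nuclei with an admitting gene were kept out by a single count of a fibrous gene.

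The microRNA gene Mir204 lies within the Trpm3 gene (chr19:22139046-22995410, plus strand, GENCODE vM21 on GRCm38) on the same strand. Its mature product is printed because Trpm3 is a given marker of the members. The microRNA itself was not measured here. Capitals mark the seed, bases 2 to 8, of the RefSeq sequence at chr19:22750610-22750631, plus strand, GRCm38.p6.
miR-204-5p: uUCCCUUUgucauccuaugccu

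Markers outside the rule were read next. Of 12 further pan-astrocyte genes, 11 were higher in protoplasmic astrocytes than in each of the 7 other classes, beside 5.61% of all genes tested. Against fibrous-gene astrocytes 10 of the 12 were higher and 1 lower, beside 11.6% and 13.3% of all genes tested. The same shares stand beside the Bergmann counts below. Aldh1l1, the formyltetrahydrofolate dehydrogenase used as a general astrocyte marker, stood at 114 to 137 CPM, with at most 18.8 CPM in any library of those classes. Of the Bergmann glia list, Gdf10, the defining gene, stood at 0.483 to 3.79 CPM, and A2m and Hopx stood at 48.6 to 57.5 and 10.7 to 16.5 CPM, below the 219 to 291 and 43.1 to 81.0 CPM of the fibrous-gene astrocytes. Of the 6 Bergmann genes tested, A2m, Hopx and Dao were lower and 1, Gria4, was higher than in fibrous-gene astrocytes. Of the same 6, A2m and Dao were higher than in each of the 7 other classes. The list summed to 912 to 1041 CPM in protoplasmic and 1160.04 to 1303 CPM in fibrous-gene astrocytes. At least 2 of the Bergmann genes Gdf10, A2m, Hopx, Dao and Wif1 were counted in 257 members (11.1%). This narrower set is meant where nuclei with at least 2 Bergmann genes are left out. A total of 142 members (6.14%) also met the gate of another class, of which 62 met that of mural cells and 37 that of oligodendrocyte precursors. The share was 3.6% to 5.65% in 3 libraries and 13.6% in vGluT2-Cre replicate 2. No doublet caller was run.

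Protoplasmic astrocytes made up 13.6%, 11.3%, 9.73% and 8.75% of all nuclei. Counting error alone gave exact 95% Clopper-Pearson intervals of 12.6 to 14.7%, 10.5 to 12.1%, 8.97 to 10.5% and 7.97 to 9.57%. The lines did not overlap, with 12.4 ± 1.65% against 9.24 ± 0.697% (SD, n = 2 libraries each). The two-sided exact permutation test gave p = 0.33 (0.67 adjusted over 4 shares), the smallest p that 2 libraries against 2 can give. Of the nuclei in the astrocyte gate, the share was 49.8 ± 1.96% against 43.5 ± 4.26% (exact permutation p = 0.33). Thinned to 1000 counts per nucleus, the shares of all nuclei were 9.71 ± 1.49% and 8.29 ± 0.391%, which narrows the difference from 3.21 to 1.42 percentage points. Female and male libraries overlapped, at 11.2 ± 3.44% and 10.5 ± 1.10% of all nuclei (exact permutation p = 1.00). The share depends on how many nuclei of other types each dissection gave, and age, which goes with line, cannot be told apart from it.

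**Figure D1:**
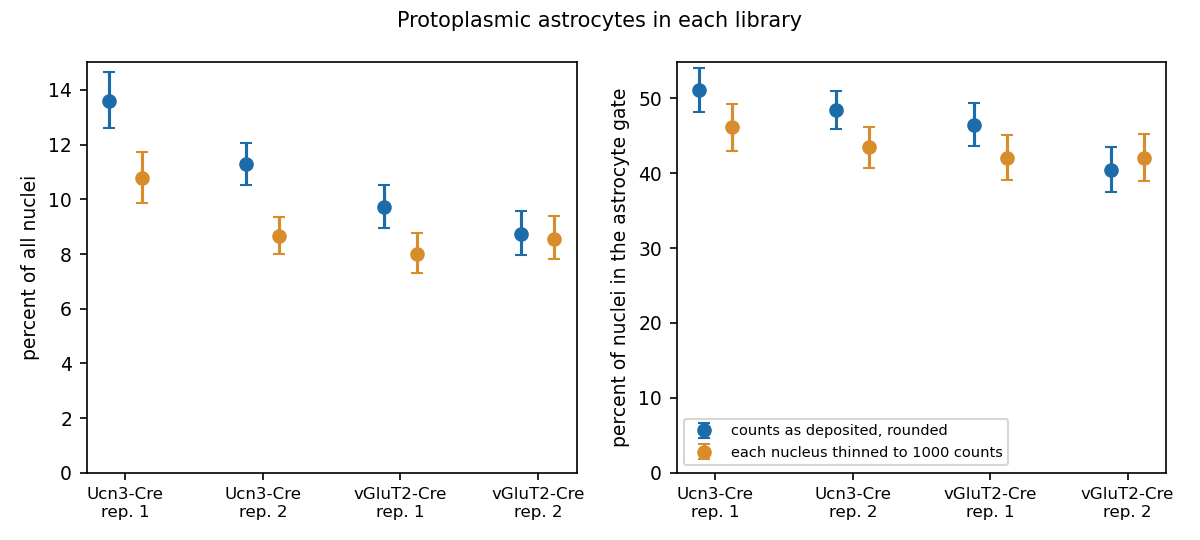
Share of protoplasmic astrocytes among all nuclei (left) and among nuclei in the astrocyte gate (right) for each library, in percent, with exact 95% binomial intervals. With counts as deposited and rounded (blue) both Ucn3-Cre libraries lie above both vGluT2-Cre libraries in both panels, and in the share of all nuclei the gap narrows from 3.21 to 1.42 percentage points with nuclei thinned to 1000 counts (orange).

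Against fibrous-gene astrocytes, protoplasmic astrocytes carried more transcript of glutamate receptor Gria2, of the potassium channels Kcnd2, Kcnj10 and Kcnj16 and of the Hedgehog receptor genes Ptch1 and Boc, and less of Vim, C4b, Id4, Zic2 and Zic4. Of 10232 genes tested with the library as block, 1182 (11.6%) were higher and 1361 (13.3%) lower at an adjusted p under 0.05 (edgeR quasi-likelihood test, Benjamini-Hochberg adjustment), with a median log2 fold change of -0.01 over all of them. DESeq2 called 694 and 791, and edgeR without the library block 695 and 815. With gates set after thinning, 875 were higher and 1023 lower. The 20 genes of the rule took no part. The nuclei were assigned by counts from the same libraries, so these p-values are too small for genes that follow the gating genes.

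The gene with the largest fold among the named genes that were higher was Cpne4 (chr9:104547286-105034544, plus strand, GRCm38), a calcium-dependent phospholipid-binding copine, at 62.2, 53.2, 43.0 and 60.9 CPM against 2.32, 3.32, 3.86 and 4.3 CPM (log2 fold change 4.05 ± 0.30 (SE), edgeR adjusted p = 1.7e-10). Nmur2 (chr11:56024987-56041010, minus strand), a receptor for the neuropeptides neuromedin U and neuromedin S, stood at 79.3, 68.1, 55.0 and 42.8 CPM against 2.32, 8.3, 9.64 and 2.87 CPM (log2 fold change 3.48 ± 0.28 (SE), edgeR adjusted p = 1.1e-09). In both, the lowest protoplasmic library lay above the highest fibrous-gene library. Named genes were chosen for their calls and large folds, so that the classes do not overlap in them is a description, here and below. A count of Nmur2 was found in 13.1% to 14.4% of protoplasmic nuclei, in 0.435% to 1.95% of fibrous-gene nuclei and in 0.0868% to 0.4% of oligodendrocytes, whose median nucleus held 1656 to 2993 counts. After thinning to 1000 counts it was found in 4.37% to 7% of protoplasmic nuclei. In glutamatergic neurons, Nmur2 stood at 5.01 to 11.1 CPM, and a predicted gene on the other strand, Gm12239, overlaps most of it.

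Gria2 (chr3:80681450-80802835, minus strand, GRCm38), the AMPA receptor subunit that limits calcium entry, stood at 589, 544, 614 and 508 CPM against 83.5, 48.1, 61.7 and 47.3 CPM (log2 fold change 3.41 ± 0.11 (SE), edgeR adjusted p = 1.8e-16). The groups were far apart in every library. The fibrous-gene level was close to that of oligodendrocytes, at 45.3 to 54.9 CPM, while oligodendrocyte precursors and inhibitory neurons reached 1066 to 1430.1 and 1196 to 1712 CPM. Gria2 was counted in 60.6% to 66.7% of protoplasmic nuclei, in 7.39% to 11.6% of fibrous-gene nuclei and in 5.87% to 9.68% of oligodendrocytes, and after thinning in 33.4% to 37.2%, 4.21% to 5.65% and 3.93% to 5.26%. Nuclei with genes of both sets had 279 to 373 CPM, between the 2 classes.

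The other leading genes that were higher held their order across libraries. Fam19a1, a secreted brain chemokine-like protein, ranged over 188 to 292 CPM against 6.64 to 31.5 CPM, and Gpld1, a phospholipase that releases glycosylphosphatidylinositol-anchored proteins, over 317 to 408 CPM against 41.7 to 69.4 CPM. Etv5, a transcription factor induced by fibroblast growth factor signalling, ranged over 109 to 155 CPM against 11.6 to 30.1 CPM (log2 fold change 2.83), and Kcnma1, the large-conductance calcium-activated potassium channel, over 525 to 559 CPM against 70.2 to 144 CPM (log2 fold change 2.70). Lpo (lactoperoxidase), Tox2 (a DNA-binding protein), Olfr1033 (an olfactory receptor) and Cables1 (a cyclin-dependent kinase partner) were higher by 3.35, 2.96, 2.75 and 2.75 on the log2 scale. Snhg11, a long non-coding RNA abundant in neurons, did not share this. It was counted in only 0.685%, 1.35%, 0.729% and 1.61% of protoplasmic nuclei, against 0.435%, 1.17%, 0.935% and 4.74% of fibrous-gene nuclei, so its level rests on few nuclei. It stood at 75.8, 159.97, 11.4 and 138 CPM, where vGluT2-Cre replicate 1 lay far below the others. Its log2 fold change of 3.46 became -0.26 when the gates were set after thinning. Glutamatergic neurons held Snhg11 at 8349.6 to 15687 CPM.

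Promoters of the leading genes were searched because Hedgehog genes were among those that were higher. The windows run from 250 bases before to 50 bases after an annotated start (RefSeq, GRCm38.p6), and were held for 9 of the 12 leading genes that were higher, in 15 windows. The GLI motif TGGGTGGTC, read on both strands, was present in 1 of these windows, that of Nmur2, and in 0.253% of all 32851 windows. It was absent from the 7 windows held for the 12 leading genes that were lower and from the 5 held for the Hedgehog pathway genes. The half-site TTGGCA of NFI factors was present in 2 of the 15 windows, those of Cpne4 and Gpld1, and in 14.1% of all windows, a share near the background. The last motif searched, ACAATGG of SOX factors, was in 0 of the 15 windows, in 1 of the 7 windows of lower genes (Abcc12) and in 3.66% of all windows. A match of letters is a description and not a measured site. The motifs are in capitals, the windows being chr11:56040938-56041237 on the minus strand for Nmur2 and chr9:104587808-104588107 on the plus strand for a second annotated start of Cpne4.
Nmur2: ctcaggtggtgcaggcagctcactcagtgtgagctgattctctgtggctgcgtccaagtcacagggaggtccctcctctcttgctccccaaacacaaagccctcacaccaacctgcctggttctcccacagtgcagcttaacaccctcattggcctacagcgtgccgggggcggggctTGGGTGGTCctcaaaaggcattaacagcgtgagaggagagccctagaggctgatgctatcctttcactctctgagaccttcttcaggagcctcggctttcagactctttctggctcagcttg
Cpne4: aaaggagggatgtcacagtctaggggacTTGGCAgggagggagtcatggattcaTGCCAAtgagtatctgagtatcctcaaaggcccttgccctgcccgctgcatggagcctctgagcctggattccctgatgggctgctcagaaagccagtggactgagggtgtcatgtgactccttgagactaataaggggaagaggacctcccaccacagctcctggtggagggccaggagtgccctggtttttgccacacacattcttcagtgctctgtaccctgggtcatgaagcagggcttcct

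Among genes that were lower, Pdzrn3 (chr6:101149609-101377897, minus strand, GRCm38), a ubiquitin ligase of the neuromuscular synapse, stood at 2.14, 1.45, 0 and 2.06 CPM against 144, 146, 245 and 188 CPM (log2 fold change -6.72 ± 0.26, SE). Bmp6, a bone morphogenetic protein ligand, ranged over 7.86 to 14.5 CPM against 227 to 349.6 CPM, and Greb1l, a retinoic acid-linked developmental gene, over 9.81 to 22.7 CPM against 312 to 350.2 CPM. The transporter gene Abcc12 had a log2 fold change of -6.38, and Armc4 and Rassf9 had -4.83 and -4.76. The matrix genes Efemp1 and Bgn had -4.13 and -4.02, and Mybpc1, a myosin-binding protein, -4.03. Acta2, Tagln and Mgp, genes of smooth muscle and vessel wall, also belonged to the 12 with the largest folds (-5.97, -4.84 and -5.14). Beside them, the summed level of the 7 endothelial gate genes was 51.2 to 194 CPM in protoplasmic and 445 to 1659 CPM in fibrous-gene astrocytes. All 7 were lower, beside 13.3% of all genes tested. Without nuclei of either class that met another class gate, Acta2, Tagln and Mgp no longer passed the filter on low counts, while the other 9 had log2 fold changes from -6.75 to -3.65. In that setting 1081 genes were higher and 1198 lower. There the endothelial gate genes still summed to 40.6 to 88.4 CPM in protoplasmic and 153 to 295 CPM in fibrous-gene astrocytes. The oligodendrocyte precursor gate genes summed to 717 to 841 against 1200 to 1364 CPM, and the mural gate genes to 310 to 351 against 268 to 341 CPM.

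Genes were then read by role, in lists. Of all genes tested in this contrast, 11.6% were higher and 13.3% lower, the shares to set beside the counts of every list below. Of the potassium, water, gap junction and ion transport list, 9 of 16 members tested were higher, 3 lower and 4 passed in neither direction (median log2 fold change 0.44). Kcnj10, the Kir4.1 channel through which astrocytes clear potassium, stood at 321, 310.3, 279 and 347 CPM against 121, 83.0, 104 and 75.9 CPM (log2 fold change 1.89 ± 0.12 (SE), edgeR adjusted p = 1.3e-11), and its partner Kcnj16 at 55.0, 63.8, 55.6 and 58.3 CPM against 9.28, 23.2, 11.6 and 24.4 CPM (log2 fold change 1.83). Both classes were apart in all 4 libraries. Kcnd2, an A-type potassium channel, ranged over 2576 to 3852 CPM against 634 to 872 CPM (log2 fold change 2.25), a level also reached by oligodendrocyte precursors at 2847 to 3512 CPM. Kcnk2, the TREK-1 leak channel, went the other way, at 30.7, 50.7, 34.1 and 29.9 CPM against 209, 246, 241 and 262 CPM (log2 fold change -2.58).

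In glutamate and glutamine handling, 2 of 10 members tested were higher, 3 lower and 5 passed in neither direction (median log2 fold change -0.11). Glul, glutamine synthetase, stood at 493, 467, 414 and 625 CPM against 244, 246, 228 and 308 CPM (log2 fold change 1.10 ± 0.08 (SE), edgeR adjusted p = 1.3e-10), and Slc25a18, a mitochondrial glutamate carrier, ranged over 129.6 to 151 CPM against 36.5 to 69.6 CPM (log2 fold change 1.76). The groups did not overlap in either. Slc38a1, a glutamine transporter better known from neurons, ranged over 212 to 303 CPM against 901 to 1149 CPM, and Slc7a11, the cystine-glutamate exchanger, over 127 to 228 CPM against 358 to 699 CPM, with log2 fold changes of -1.82 and -1.39. Glul was not higher than in all other classes, since oligodendrocytes held 452 to 626 CPM.

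In GABA, glycine and serine handling, 4 of 13 members tested were higher, 3 lower and 6 passed in neither direction (median log2 fold change 0.04). The glycine transporter Slc6a9 (GlyT1) stood at 372, 369, 424 and 323 CPM against 176, 181, 285 and 153 CPM (log2 fold change 1.06 ± 0.10 (SE), edgeR adjusted p = 6.7e-09). The classes did not overlap. Phgdh, the first enzyme of serine synthesis, was lower, at 23.2 to 29.1 CPM against 46.4 to 66.4 CPM (log2 fold change -1.08). The taurine transporter Slc6a6 was lower as well (log2 fold change -2.28). Its call was lost without nuclei of either class that met another class gate (log2 fold change -0.10) and with gates set after thinning (-0.84). Of the GABA-A and glycine receptor list, 3 of 10 members tested were higher, 1 lower and 6 passed in neither direction (median log2 fold change 0.20). Gabrg3, Glrb and Gabrg1 were higher by 1.65, 1.04 and 0.83, and Gabra2 was lower (log2 fold change -0.45).

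The glutamate receptor list moved in both directions: 9 of 16 members tested were higher, 5 lower and 2 passed in neither direction (median log2 fold change 0.42). Beside Gria2, Grin2c, an NMDA receptor subunit found in astrocytes and granule cells, stood at 119, 133, 106 and 119 CPM against 34.8, 23.2, 23.1 and 27.2 CPM (log2 fold change 2.30 ± 0.16 (SE), edgeR adjusted p = 6.6e-11) and was the only member of the list higher than in all 7 other classes. The kainate receptor subunit Grik3 was higher (log2 fold change 1.70), but not with gates set after thinning (0.80, adjusted p above the threshold). Grm7, a presynaptic metabotropic receptor, was lower, at 41.5, 30.0, 57.5 and 48.0 CPM against 533, 433, 498 and 449.9 CPM (log2 fold change -3.30 ± 0.11 (SE), edgeR adjusted p = 2.8e-16). Neither Grin2c nor Grm7 overlapped between the classes.

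Of adhesion and axon guidance genes, 13 of 25 members tested were higher, 4 lower and 8 passed in neither direction (median log2 fold change 0.39). Slit2, a secreted guidance cue, ranged over 63.6 to 89.8 CPM against 10.0 to 26.6 CPM. Lrrtm3, a synaptic adhesion protein whose gene lies within the gene Ctnna3 on the other strand, ranged over 13.0 to 49.6 CPM against 148 to 259.7 CPM (log2 fold change -2.34). Whether reads of Ctnna3 add to its count was not tested. Efnb2, an ephrin ligand, was lower, at 1.45 to 7.15 CPM against 9.64 to 27.2 CPM. Of secreted synapse and matrix factors, 9 of 14 members tested were higher, 2 lower and 3 passed in neither direction (median log2 fold change 0.33), led by the lectican Ncan (1.13), the protease inhibitor Timp4 (1.05), the phagocytic receptor Mertk (0.97) and the cytokine Il33 (0.74). Without nuclei of either class that met another class gate, 9 were higher and 1 lower. Timp4 lies within Syn2, and Ncan was not called with gates set after thinning (0.41).

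Of growth factor, Notch, Wnt and Hedgehog genes, 14 of 22 members tested were higher, 2 lower and 6 passed in neither direction (median log2 fold change 0.39). Without nuclei of either class that met another class gate, 12 were higher and 5 lower, and with 1 library left out 10 to 13 were higher and 2 to 3 lower. The Hedgehog receptor Ptch1 (chr13:63508328-63573598, minus strand, GRCm38), itself a target of the pathway, stood at 527, 388, 479 and 449.6 CPM against 227, 224, 264 and 208 CPM (log2 fold change 1.13 ± 0.09 (SE), edgeR adjusted p = 5.3e-10). The co-receptor Boc ranged over 229 to 271 CPM against 92.6 to 181 CPM (log2 fold change 1.14), and the transcription factors Gli3 and Gli2 and the transducer Smo were higher by 0.81, 0.31 and 0.40. The calls of Ptch1, Boc and Gli3 held in all 15 alternatives, but that of Gli2 held in 10 and that of Smo in 8. With gates set after thinning, Gli2 and Smo had log2 fold changes of 0.05 and 0.19. All 5 were also higher than in each of the 7 other classes. Gli1 and the co-receptor Cdon were too low to be tested, at 0 to 11.1 and 0 to 1.55 CPM. Gli3, Smo, Gli1 and Cdon were named after their values were seen, to complete the pathway. Fgfr3, a fibroblast growth factor receptor of astrocytes, ranged over 415 to 447 CPM against 223 to 275 CPM (log2 fold change 0.90), and Il6st, the gp130 cytokine receptor, was lower (-1.23).

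Of G-protein coupled receptors, 6 of 15 members tested were higher, 3 lower and 6 passed in neither direction (median log2 fold change 0.35). Adrb1, the beta-1-adrenergic receptor, was higher (1.79, 20.8 to 32.0 CPM against 2.32 to 10.0 CPM) and Adra1a, an alpha-1-adrenergic receptor, lower (-0.89, 58.8 to 67.2 CPM against 103 to 166 CPM). Ntsr2, a neurotensin receptor of astrocytes, and the latrophilin Adgrl3 were higher by 0.88 and 1.06. Of calcium signalling and TRP channel genes, 4 of 13 members tested were higher, 4 lower and 5 passed in neither direction (median log2 fold change -0.03). In that list the sodium-calcium exchanger Slc8a1 (-2.60) and the calcium pump Atp2b4 (-2.45) were lower and the phospholipase Plcb1 higher (1.04).

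Metabolic genes were divided. Of glucose, lactate and glycogen genes, 4 of 16 members tested were higher, 4 lower and 8 passed in neither direction (median log2 fold change 0.04). Pfkfb3, which makes the activator of the glycolytic enzyme phosphofructokinase, stood at 208, 219, 223 and 224 CPM against 83.5, 88.0, 75.2 and 67.3 CPM (log2 fold change 1.63 ± 0.11 (SE), edgeR adjusted p = 7.9e-11). The glycogen phosphorylase Pygm and the phosphorylase kinase subunit Phka1 were higher by 0.78 and 0.77, and the lactate transporter Slc16a1 was lower (-1.09). Of lipid, cholesterol and apolipoprotein genes, 9 of 16 members tested were higher, 3 lower and 4 passed in neither direction (median log2 fold change 0.40). The fatty acid elongase Elovl2 and the acyl-CoA synthetase Acsbg1 were higher by 1.68 and 0.87. Clusterin, encoded by Clu, was lower (-1.33, 421 to 528 CPM against 1030.2 to 1726 CPM), as was the acyltransferase Lpcat2 (-1.32).

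Of 31 transcription factors tested, 8 were higher, 11 lower and 12 passed in neither direction (median log2 fold change -0.03). Id4, an inhibitor of helix-loop-helix factors, ranged over 32.4 to 51.2 CPM against 209 to 266 CPM, and the cerebellar patterning gene Zic4 over 30.3 to 38.6 CPM against 154 to 206 CPM, with log2 fold changes of -2.30 and -2.12. Zic2 was lower as well (log2 fold change -2.36). Without nuclei of either class that met another class gate, 8 were higher and 14 lower. Etv5 alone among the 4 of this list with the largest changes was higher.

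Of intermediate filament and reactive genes, 0 of 9 members tested were higher, 7 lower and 2 passed in neither direction (median log2 fold change -1.66). Vim, which encodes vimentin, stood at 11.4, 17.4, 8.22 and 7.74 CPM against 121, 146, 195 and 228 CPM (log2 fold change -3.78 ± 0.21 (SE), edgeR adjusted p = 1.0e-12). C4b, complement component 4, ranged over 13.9 to 27.9 CPM against 234 to 351 CPM (log2 fold change -3.54), and Cp, ceruloplasmin, over 8.22 to 10.6 CPM against 44.1 to 105 CPM (-2.63). The gate required Gfap to be 0 in the members, and these genes are known to accompany Gfap, so the list is not independent of the rule.

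Other transcripts moved with the same contrast. Of mitochondrial transcripts, 0 of 12 members tested were higher, 10 lower and 2 passed in neither direction (median log2 fold change -0.93), led by mt-Cytb (-1.27), mt-Nd5 (-1.17), mt-Co2 (-1.08) and mt-Nd4. The call of mt-Nd5 was lost with gates set after thinning (-0.63). The median nucleus held 0.0669% to 0.217% mitochondrial counts in protoplasmic and 0.18% to 0.346% in fibrous-gene astrocytes. Of 7 myelin transcripts 6 were lower, with summed levels of 781 to 876 CPM against 1373 to 1568 CPM, and Mbp at 84.1 to 170.1 CPM against 284 to 373 CPM. Of general neuron genes, 4 of 6 tested were lower and none higher, with summed levels of 236 to 516 CPM against 424 to 829.8 CPM. Jun and Btg2, immediate early genes, were lower (log2 fold changes -1.15 and -1.05), calls that DESeq2 did not make and that were lost without vGluT2-Cre replicate 2. Without nuclei of either class that met another class gate, 1 immediate early gene was lower. Of heat shock genes, 0 of 7 members tested were higher, 3 lower and 4 passed in neither direction (median log2 fold change -0.42), with log2 fold changes of -0.46, -0.44 and -0.42 for Hsp90ab1, Hsp90aa1 and Hspa8. The call of Hsp90aa1 was lost with DESeq2, with gates set after thinning (-0.25), without vGluT2-Cre replicate 1 and without the library block, and that of Hspa8 without the block. Of the oligodendrocyte precursor genes 3 of 5 tested were lower (summed 794 to 1030.4 CPM against 1193 to 1514 CPM), of the mural genes 3 of 5 (347 to 381 against 385 to 1151 CPM) and of the microglia genes 0 of 6 in either direction (86.2 to 140.1 against 105 to 218 CPM). Of fibroblast genes 1 of 3 was higher and 1 lower, of 2 Purkinje cell genes tested none was higher, and no ependymal gene passed the filter. Of 7 fibrous-astrocyte genes outside the rule, 7 were lower, 5 to 7 with 1 library left out and 6 without nuclei of either class that met another class gate. The gates asked for no fibrous gene in the members and for a count of one in the other class. That list is therefore not independent of the rule. The part of these transcripts in the differences above was not tested.

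**Figure D2:**
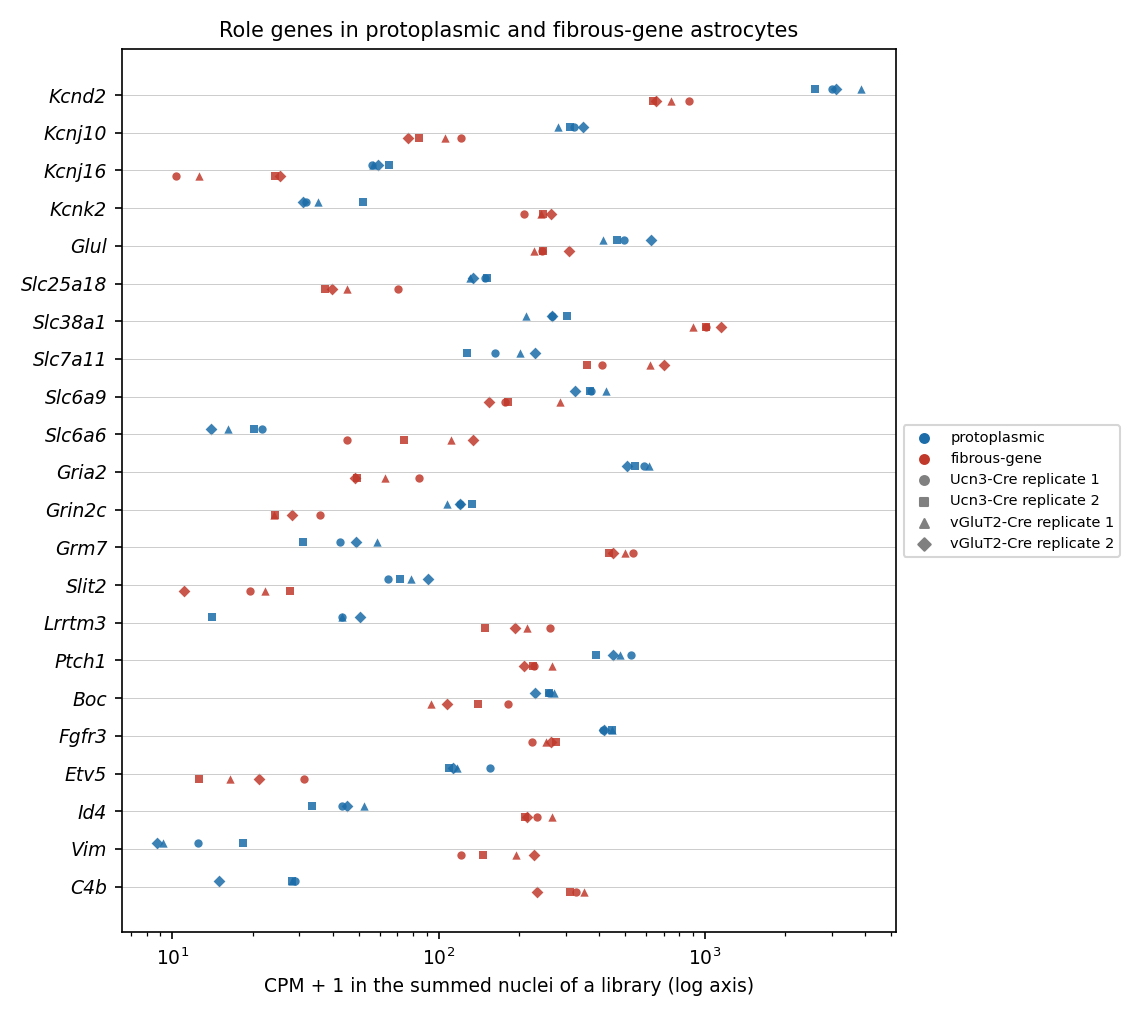
Level of role genes, as CPM + 1 on a log axis, in the summed protoplasmic (blue) and fibrous-gene (red) astrocytes of each library, with a marker shape for each of the 4 libraries. For each gene the blue and red points are apart: Gria2, Kcnd2 and Etv5 lie to the right in protoplasmic astrocytes, and Grm7, Kcnk2, Vim and C4b to the left.

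**Figure D3:**
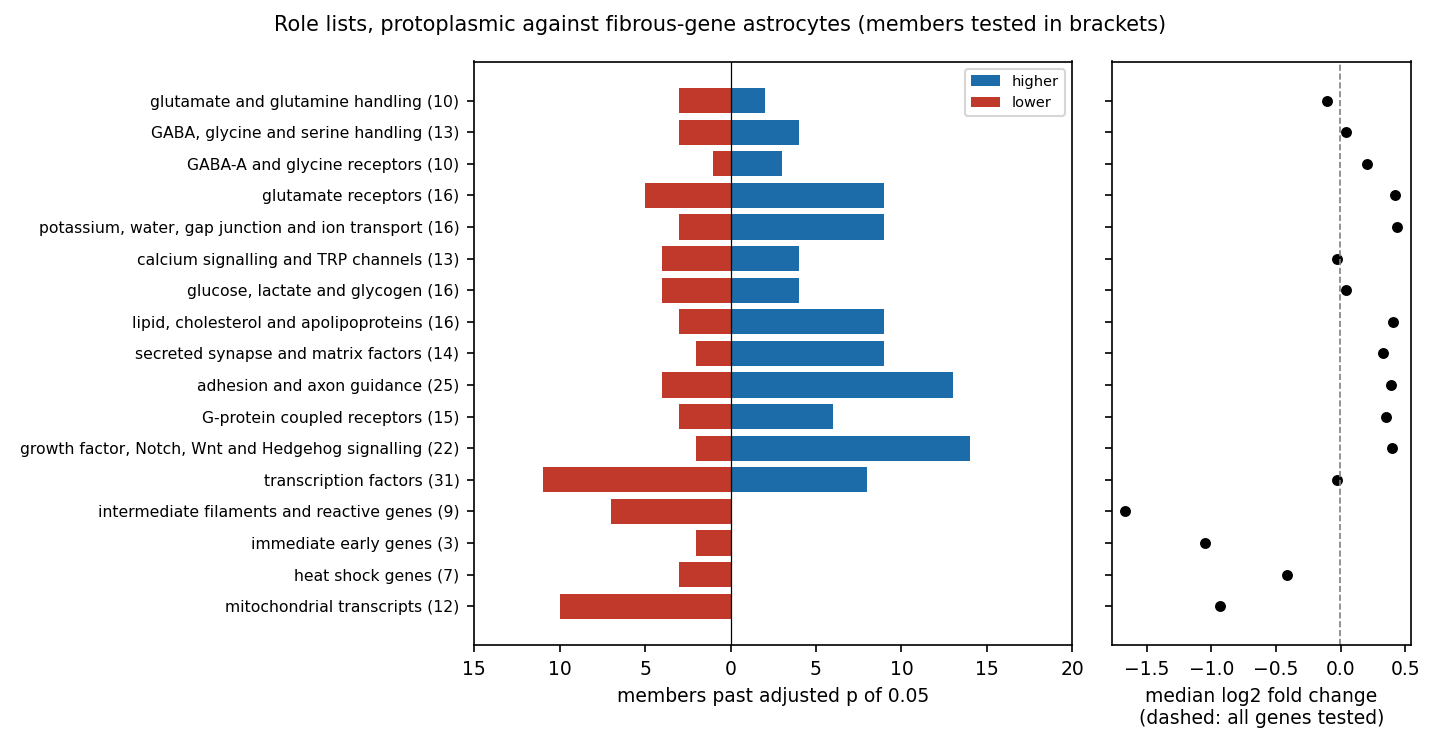
Role lists in the comparison of protoplasmic with fibrous-gene astrocytes. Bars give the number of members higher (blue) or lower (red) at an adjusted p under 0.05, with the number tested in brackets, and points give the median log2 fold change beside that of all genes tested (dashed line). The growth factor and Hedgehog list has 14 higher and 2 lower, which become 12 and 5 without nuclei that met another class gate, and no member of the reactive or mitochondrial lists is higher.

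Outside the astrocyte gate, 7 other cell classes were compared, and fibrous-gene astrocytes were not among them. Protoplasmic astrocytes carried more transcript of the Hedgehog transcription factor Gli2, the retinoic acid hydroxylase Cyp26b1, the bicarbonate cotransporter Slc4a4 and the carnitine synthesis enzyme Bbox1 than each of the 7. The 7 classes were oligodendrocytes, oligodendrocyte precursors, microglia, endothelial cells, mural cells, inhibitory neurons and glutamatergic neurons, each with at least 26 nuclei in every library. Of 11340 genes tested, 636 (5.61%) were higher and 50 (0.441%) lower than in each of the 7 classes at an adjusted p under 0.05 in every pairwise edgeR contrast. Restricted to genes counted in every sum, the counts were 258 and 51 of 5169. Fibroblasts and granule cells had too few nuclei and were not compared.

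Trpm3, a given marker, is among the 15 genes with the largest fold to the nearest class and is described above. Of the other 14, Gli2, the Hedgehog transcription factor, stood at 285, 273, 229 and 248 CPM and at no more than 22.6 CPM in any library of the 7 classes. Its log2 fold change was 4.74 to the nearest of them, oligodendrocytes, and 0.31 to fibrous-gene astrocytes. Cyp26b1, which degrades retinoic acid, stood at 327, 374, 230.1 and 428 CPM (at most 45.2 CPM in the 7 classes, 4.48 to mural cells). Slc4a4, the sodium bicarbonate cotransporter, stood at 4319, 4219, 4699 and 4697 CPM (at most 963 CPM in the 7 classes, 4.03 to mural cells). In each, the lowest protoplasmic library lay above the highest library of any of the 7 classes.

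Bbox1, which makes carnitine, and Acsbg1 and Acot11, which activate and hydrolyse acyl-CoA, had log2 fold changes to the nearest class of 4.69, 4.26 and 4.05. Etnppl, a phosphoethanolamine lyase, and Cyp4f15, a fatty acid hydroxylase, had 3.84 and 4.69. Aqp9, a water and glycerol channel, Phkg1, the catalytic subunit of phosphorylase kinase, and Bmpr1b, a bone morphogenetic protein receptor, had 4.51, 4.19 and 4.11. Nwd1, Atp13a4 and the long non-coding RNA Celrr had 4.34, 4.08 and 3.80. The calls of the 15 genes held in each alternative that gave them a value. The test of genes counted in every sum gave a value for 2 of them. Fibrous-gene astrocytes held these genes too. The difference between the 2 astrocyte classes did not pass for Bbox1 (log2 fold change 0.08), Aqp9 (0.29), Phkg1 (-0.07) and Bmpr1b (-0.15), while Cyp4f15 and Nwd1 were higher in protoplasmic astrocytes by 1.69 and 1.25.

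Read by role list, the lipid list had 10 of 16 members higher than in all 7 classes, the ion transport list 8 of 16, the growth factor and Hedgehog list 12 of 24 and the transcription factor list 13 of 31, beside 5.61% of all genes. The glutamate receptor list had 1 of 18 and the adhesion list 4 of 25. No member of the reactive, immediate early, heat shock or mitochondrial lists was higher than in all classes. The lists were chosen with earlier results of these data known.

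**Figure D4:**
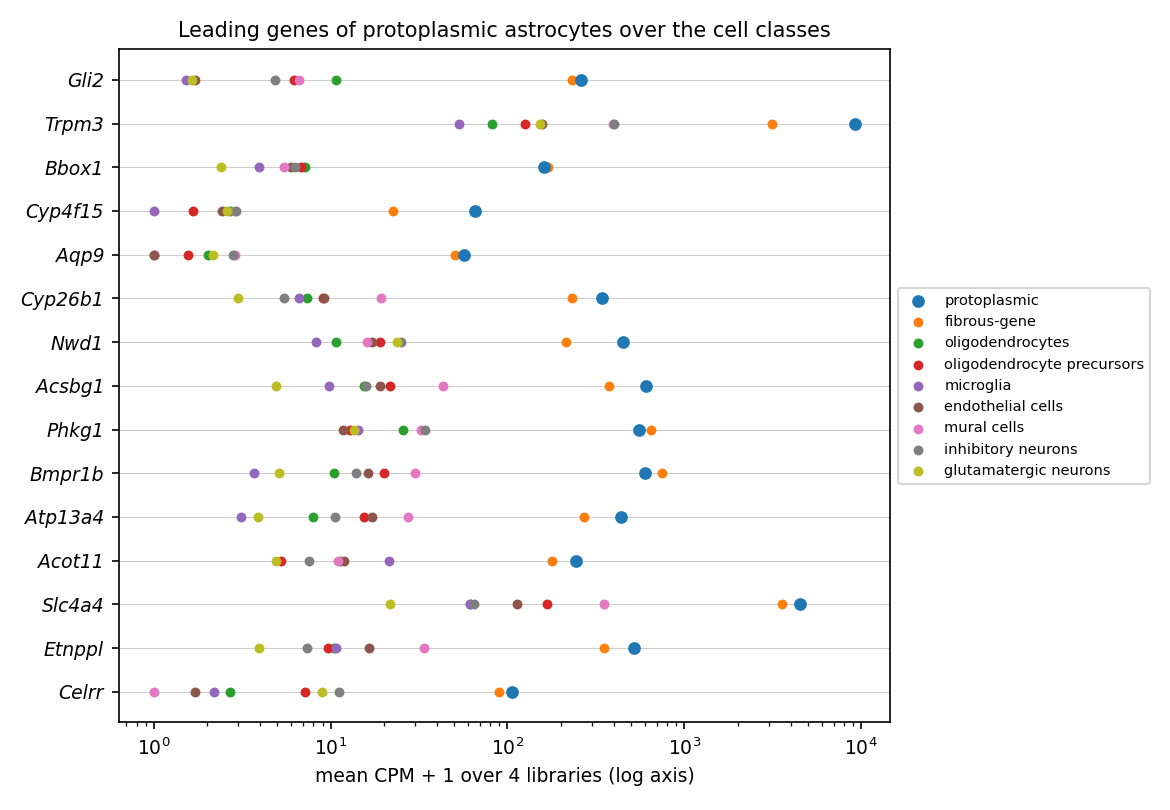
Mean level over 4 libraries, as CPM + 1 on a log axis, of the 15 genes with the largest fold to the nearest class, in protoplasmic astrocytes (large blue points), fibrous-gene astrocytes (orange) and the 7 other classes. Trpm3, Gli2 and Slc4a4 are far to the right of the 7 classes, and the orange points lie near the blue ones for Bbox1, Aqp9 and Phkg1.

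The members also varied with the gene that admitted them. Nuclei with a count of Gria1 alone, 24, 50, 14 and 14 per library, were set against nuclei with a count of Slc7a10 alone. Of 7200 genes tested, 45 (0.625%) were higher and 79 (1.1%) lower in the Gria1-only nuclei (edgeR, library as block). With DESeq2's size factors the split was 56 and 65, and among genes counted in every sum it was 88 and 63 of 4922. DESeq2 called 27 and 20. Leaving out vGluT2-Cre replicate 2 left 19 and 23. With 14 to 50 nuclei on one side, single genes rest on few counts.

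Of the 16 genes named, 3 kept their call in each alternative that gave a value. Nnat, an imprinted proteolipid of neural cells, stood at 332, 824, 368 and 891 CPM in Gria1-only and 111, 202, 156 and 128 CPM in Slc7a10-only nuclei (log2 fold change 1.92 ± 0.19 (SE), edgeR adjusted p = 8.6e-20). Hdac9, a histone deacetylase, stood at 311, 149, 425 and 191 CPM against 69.3, 57.4, 86.6 and 80.4 CPM (log2 fold change 1.65 ± 0.28 (SE), edgeR adjusted p = 2.2e-06). Rgs7, a regulator of G-protein signalling, was lower, at 311, 281, 142 and 255 CPM against 646, 538, 649.8 and 679 CPM (log2 fold change -1.35 ± 0.20 (SE), edgeR adjusted p = 5.1e-09). None of the 3 overlapped between the 2 kinds of nuclei.

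The other 13 lost their call in at least 1 alternative. Those higher in Gria1-only nuclei were Enkur (3.80), Grm7 (1.89), St6galnac5 (1.80), Nkain3 (1.68), Wnk2 (1.64) and Kcnk2 (1.55). The log2 fold change of Grm7 was 0.07 with gates set after thinning. Igfbp2, a binding protein of insulin-like growth factors, was lower, at 0, 8.77, 0 and 0 CPM against 72.9, 61.1, 54.8 and 109 CPM. The others that were lower were Shroom4 (-2.60), Zfp536 (-2.43), Pvt1 (-2.29), Rgcc (-1.91), Grin2c (-1.42) and Fndc3b (-1.29). Grm7 and Kcnk2 were lower, and Grin2c higher, in protoplasmic than in fibrous-gene astrocytes, so the Gria1-only nuclei lay nearer to the fibrous-gene level in these 3 genes. By their gates, Gria1-only nuclei and fibrous-gene astrocytes both have no count of Slc7a10, so this is a description. The p-values of this contrast are likewise too small for genes that follow the admitting genes. They also rest on a spread shared over genes, and hardly on a gene's own spread over the libraries. Trpm3 stood at 7650.4, 5944, 5583 and 5327 CPM in Gria1-only and 10979.7, 8944, 10699.5 and 9416 CPM in Slc7a10-only nuclei, a description of a marker.

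**Figure D5:**
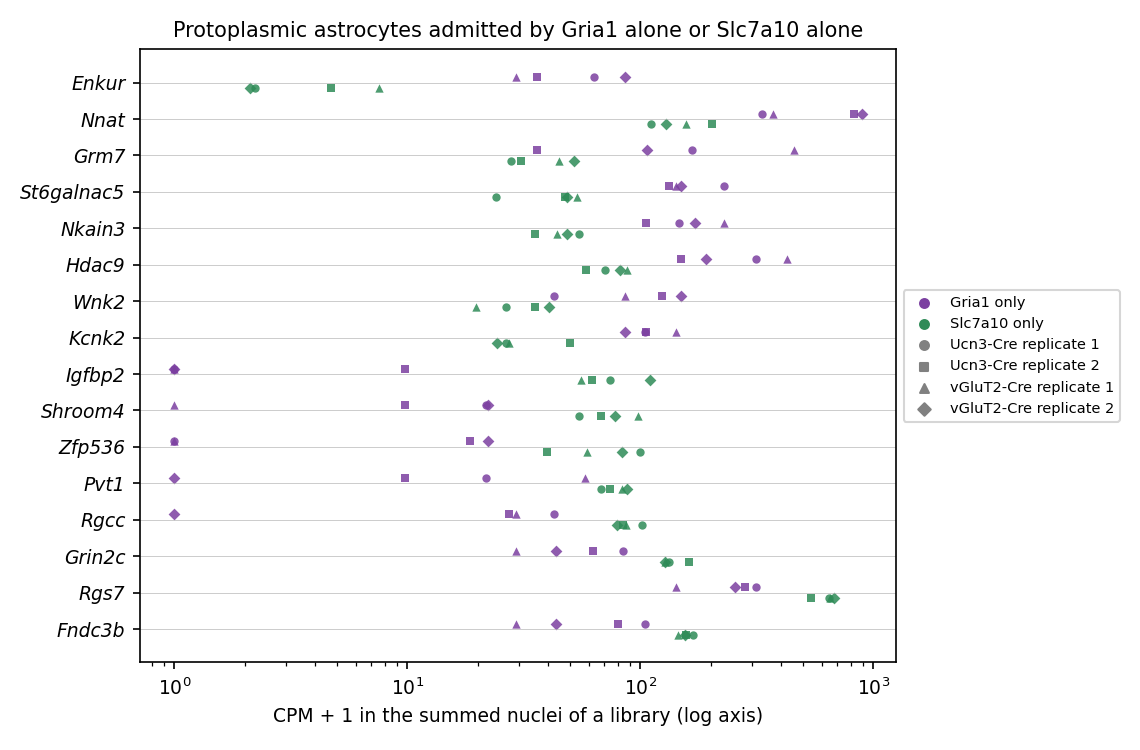
Level of 16 genes, as CPM + 1 on a log axis, in protoplasmic astrocytes with a count of Gria1 alone (purple) or Slc7a10 alone (green), with a marker shape for each library. Nnat, Hdac9 and Rgs7 are apart in all libraries, and the Gria1-only points, from 14 to 50 nuclei each, spread widely.

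Between the lines, no gene passed the test within protoplasmic astrocytes. Of 11162 genes, edgeR called 0 (0.0%), with 347 at an unadjusted p under 0.05, and DESeq2 called 22. Of those 22, 14 were listed at 0 in every nucleus of at least 1 library, and 8 were counted in every library. In the tables, 4186 of 15632 genes are listed at 0 throughout at least 1 library while counted in another, so a line or sex difference in such a gene cannot be told apart from its absence from that library's table.

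Of genes at a mean of at least 50 CPM, 9630028H03Rik had the smallest p and stood at 396, 413, 243 and 241 CPM (log2 fold change 0.75 ± 0.13 (SE), edgeR adjusted p = 0.93, DESeq2 adjusted p = 3.5e-04). The adhesion genes Dscam and Opcml were at lower levels in both Ucn3-Cre libraries, at 34.3, 37.7, 68.3 and 84.7 and 52.2, 43.5, 94.2 and 98.1 CPM, and the mitochondrial transcripts mt-Nd4 and mt-Cytb likewise, at 104, 96.2, 199 and 178 and 99.4, 90.4, 191 and 167 CPM. None passed the edgeR threshold (adjusted p = 0.93 for each). DESeq2 called mt-Nd4, mt-Cytb and Opcml (DESeq2 adjusted p = 0.0045, 0.0057 and 0.029) and not Dscam (0.052). These genes were chosen for their small p, so that their lines do not overlap is a description. All 12 mitochondrial transcripts tested had log2 fold changes below 0, from -1.47 to -0.24, beside a median of 0.01 over all genes. None passed (smallest edgeR adjusted p = 0.93). This was not particular to the members. The median mitochondrial share was 0.180%, 0.253%, 0.339% and 0.346% in fibrous-gene astrocytes. In all nuclei of the libraries it was 0.145%, 0.235%, 0.249% and 0.300%. The reporter transcript YFP, named after its values were seen, stood at 62.2, 39.6, 120.1 and 125 CPM (log2 fold change -1.28 ± 0.27 (SE), edgeR adjusted p = 0.93, DESeq2 adjusted p = 0.01). It stood at 25.5, 39.8, 135 and 139 CPM in fibrous-gene astrocytes and at 5.63 to 37.2 CPM in oligodendrocytes. Its source was not tested.

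Between the sexes, edgeR called 1 of 11162 genes (0.00896%), Xist, the RNA of the inactive X chromosome. It stood at 4681, 0, 0 and 4622 CPM, at 0 in both male libraries (edgeR adjusted p = 0.0052). The Y-linked genes Uty and Kdm5d stood at 0, 152, 229 and 0 and 0, 59.4, 68.3 and 0 CPM, which matches the labelled sexes. DESeq2 called 24 genes, of which 4 were counted in every library. Zbtb16, a zinc finger factor that responds to glucocorticoids, was one of them, at 436, 245, 188 and 385 CPM, with a log2 fold change of 0.99 ± 0.18 (SE), a DESeq2 adjusted p of 1.2e-04 and an edgeR adjusted p of 1.00. Zbtb16 was named after its values were seen. Leaving out a male library gave 39 calls (Ucn3-Cre replicate 2) or 11 (vGluT2-Cre replicate 1), and leaving out either female library gave 0, so that Xist was no longer called. With the replicate number as a block, Xist had an edgeR adjusted p of 0.14.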

How the data were processed

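Nuclei of mouse deep cerebellar nuclei were processed by the authors with Cell Ranger 3.1.0 and Seurat 3.2 on genome build mm10, per the submitters' processing notes. The values deposited by the authors are expected counts per gene and nucleus, with 15632 genes listed by symbol. In each library 97.2% to 98.8% of values above 0 lie within 0.5 below a whole number. The step that made them is not given in the sources used here. Every deposited nucleus has at least 1000.1 counts and 611 genes.

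The members, the gene lists and the tests were chosen with earlier results of these data known. Values were rounded to whole counts, and the gates were applied to each nucleus. No nuclei were removed and no doublet caller was run. Counts were summed per library and class. Sums were compared with edgeR 4.0.16 in R 4.3.3 (filterByExpr, TMM, glmQLFit and glmQLFTest, Benjamini-Hochberg adjustment over all genes tested, threshold 0.05), and DESeq2 1.42.0 was run as an alternative. The library was the block for comparisons of classes, since both sums of a library share its animal and extraction. Line and sex comparisons set 2 libraries against 2 with no block. CPM are summed counts times 1000000 over the class total, with no TMM scaling. Named genes were the 12 largest folds in each direction (15 for all classes, 8 for the admitting genes) with a mean of at least 50 CPM in the higher class and, between paired sums, the same direction in 4 of 4 libraries, without unnamed gene models, and up to 4 members of each of 17 role lists. Of the genes this rule names, 2 are not reported here. For line and sex they were those past the threshold, or else the 5 with the smallest p at a mean of at least 50 CPM. Another class gate is at least 3 of that class's listed genes with a count, or 2 for inhibitory neurons. On simulated counts with 4-fold changes in about 200 genes, edgeR recovered 99.5% of changed genes for protoplasmic against fibrous-gene astrocytes, 89.3% for the lines and 94.0% for the sexes. The simulation gave every gene the same spread and changed only well-counted genes, so it does not give the power in the measured libraries. There, Uty and Kdm5d, at 0 in both female libraries, did not pass between the sexes (edgeR adjusted p = 0.20 and 0.13). P-values of the class comparisons measure the spread of differences within libraries, and those of line and sex the spread between libraries. In both, edgeR draws the spread of a gene towards that of the other genes. For Gria1-only against Slc7a10-only nuclei the p-values are those of a normal statistic, so a gene's own spread hardly enters them. Whether a library is 1 animal is not given in the sources used here. Of the listed genes, 12 were not analysed here. Gene positions come from GENCODE vM21 (build GRCm38, also called mm10), and promoter and microRNA sequences are those of RefSeq on GRCm38.p6.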

Additional observations from a re-analysis of the deposited data

How the results depend on the processing

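Of the named genes' values for protoplasmic against fibrous-gene astrocytes under the alternatives, 1252 kept direction and call, 23 kept the direction only and 1 reversed. The 1 was Snhg11, at -0.26 on the log2 scale with gates set after thinning to 1000 counts. Of 87 named genes, 13 lost a call or reversed in at least 1 alternative. The total of calls was 1485 with DESeq2 and 1510 without the replicate block. Leaving out 1 library in turn gave 2019 to 2503 calls.

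Against all other classes the total was 309 when only genes counted in every sum were tested, and 600 to 666 with 1 library left out. For Gria1-only against Slc7a10-only nuclei it was 47 with DESeq2, 217 with gates set after thinning and 43 with no replicate block, and 42 to 103 with 1 library left out.

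Between lines, DESeq2 called 22 genes, and 0 were called by edgeR in every other alternative. Between sexes, DESeq2 called 24, edgeR with no filter on low counts 7, edgeR without nuclei with at least 2 Bergmann genes 2, edgeR on genes counted in every sum 0, and leaving out 1 library 0 to 39. Same-numbered libraries did not deviate together (correlation of deviations -0.20 over 6091 genes), and no label says that a number marks a shared animal or day. The column names of both replicate 2 libraries hold a shared number and those of replicate 1 different ones, and its meaning is not given in the sources used here. With the replicate block edgeR called 0 genes between lines and 0 between sexes. With sex as the block of the line test and line as the block of the sex test, an alternative added after the data were seen, it called 0 and 0. The alternative without nuclei of either astrocyte class that met another gate was added after the data were seen too.

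The difference of shares between sexes changed sign. It was 0.67 percentage points of all nuclei, and -1.76 to 3.105 with 1 library left out. It was -1.63 points of the astrocyte gate, 1.32 after thinning, and -6.96 to 3.71 with 1 library left out. The difference between lines stayed above 0, from 1.42 to 4.37 points of all nuclei and from 1.51 to 9.29 of the astrocyte gate. Where no cause is named it was not tested. The Gria1-only sums are limited by the number of nuclei, 14 in each vGluT2-Cre library.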
